A study of Mus musculus with 12 samples.

Results

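Non-canonical Wnt and planar polarity genes were followed in whole mouse adrenals. The group comprised 10 of the 39017 genes in the count table and was set as a list of names, chosen with earlier results of these data known: the receptors and co-receptors Ror1, Ror2, Ryk and Ptk7, the core polarity genes Vangl1, Vangl2 and Prickle1, and the effectors Daam1, Daam2 and Nfatc4. All 10 passed the filter on low counts. RNA was sequenced from 6 control (Ctrl) and 6 βCat-GOF adrenal samples of female mice aged 10 to 11 weeks on a mixed sv129-C57Bl/6 background. By the genotype labels, Ctrl mice carried ASCre/+ and βCat-GOF mice ASCre/+ together with Ctnnb1fl(ex3)/+, so that both groups would carry the Cre recombinase, although the sample titles call the controls Wt_Ctr and the study also speaks of wild type. ASCre is expressed from the aldosterone synthase (Cyp11b2) locus, which is active in the zona glomerulosa (zG), the outer steroid-producing layer of the cortex. In cells with Cre, loss of exon 3 of Ctnnb1 leaves a β-catenin that escapes degradation. The whole gland was sequenced, including the zona fasciculata (zF), medulla, vessels and capsule. The study cites lineage tracing in which zG cells move into the zF and change identity, so part of the zF can descend from recombined cells. In such bulk samples a change in the number of cells of a type and a change in RNA per cell cannot be told apart.

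Non-canonical Wnt signalling is the set of Wnt responses that do not run through β-catenin-dependent transcription. A Wnt ligand such as Wnt5a engages a Frizzled together with Ror1, Ror2, Ryk or Ptk7, and the signal passes to effectors that act on the cytoskeleton or to calcium and NFAT. Planar cell polarity uses much of the same machinery: Vangl and Prickle proteins gather on one side of a cell and Frizzled and Dishevelled on the other, which orients cells within a sheet. These pathways are best known for cell rearrangements in embryonic tissues, and in the adrenal zG cells are arranged in rosettes within glomeruli.

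The libraries held between 13484675 and 25625494 counts. Ctnnb1 itself had 21625 ± 858 normalized counts in Ctrl and 21397 ± 1151 in βCat-GOF (mean ± SD, n = 6 each), which at the level of whole-gene counts does not show whether exon 3 was lost. Every Ctrl label opened with one and the same number, 5 of the 6 βCat-GOF labels with another and βCat-GOF 5 with yet another, so whatever this number stands for cannot be told apart from genotype. In 3 pairs of libraries (Ctrl 1 and 2, Ctrl 3 and 4, βCat-GOF 1 and 2) the labels shared a longer stem. The study describes 6 mice per group, but the labels do not say whether such a pair came from different mice. The counts of paired libraries differed beyond sampling noise, with a chi-square per degree of freedom of 39.2 to 42.8 against 15.8 to 136 in the 27 other pairs within a group, and p-values measure the spread between libraries. βCat-GOF 1 also stood apart from the rest of its group: its median Spearman correlation across genes was 0.977 with the Ctrl libraries and 0.972 with the other βCat-GOF libraries, whereas each of the other 5 correlated better with its own group. Results are therefore given also without βCat-GOF 1 and 2, and with the counts of each pair summed.

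The changes were unequal within the group. Nfatc4, Daam2, Ror2 and Prickle1 rose in βCat-GOF, between 1.53-fold and 2.89-fold. The other 6 genes did not pass the cut-offs, and Ror1, Ptk7 and Vangl2 had lower means in βCat-GOF. A gene was called where edgeR's quasi-likelihood test gave an adjusted p under 0.05 (Benjamini-Hochberg over 14953 tested genes), the fold was above 1.4 and the mean of normalized counts above 100. By this rule 4 of 10 genes were higher and 0 of 10 lower, against a background of 1.48% of tested genes higher and 0.869% lower. Because the 10 genes were chosen with results from these libraries known, these counts describe them and nothing is read from their distance to the background. DESeq2 without shrinkage called 1 of the 10 lower, Ror1, against a background of 1.72%, and 7 of the 10 had an unadjusted p under 0.05 in edgeR, against 20.4% of all tested genes. In 3 of the 10, every βCat-GOF library lay above every Ctrl library, against 1.82% of genes with a mean above 100, and in 0 of the 10 below, against 1.04%. The median log2 fold change was 0.19 over the 10 genes and 0.00011 over all tested genes.

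**Figure D1:**
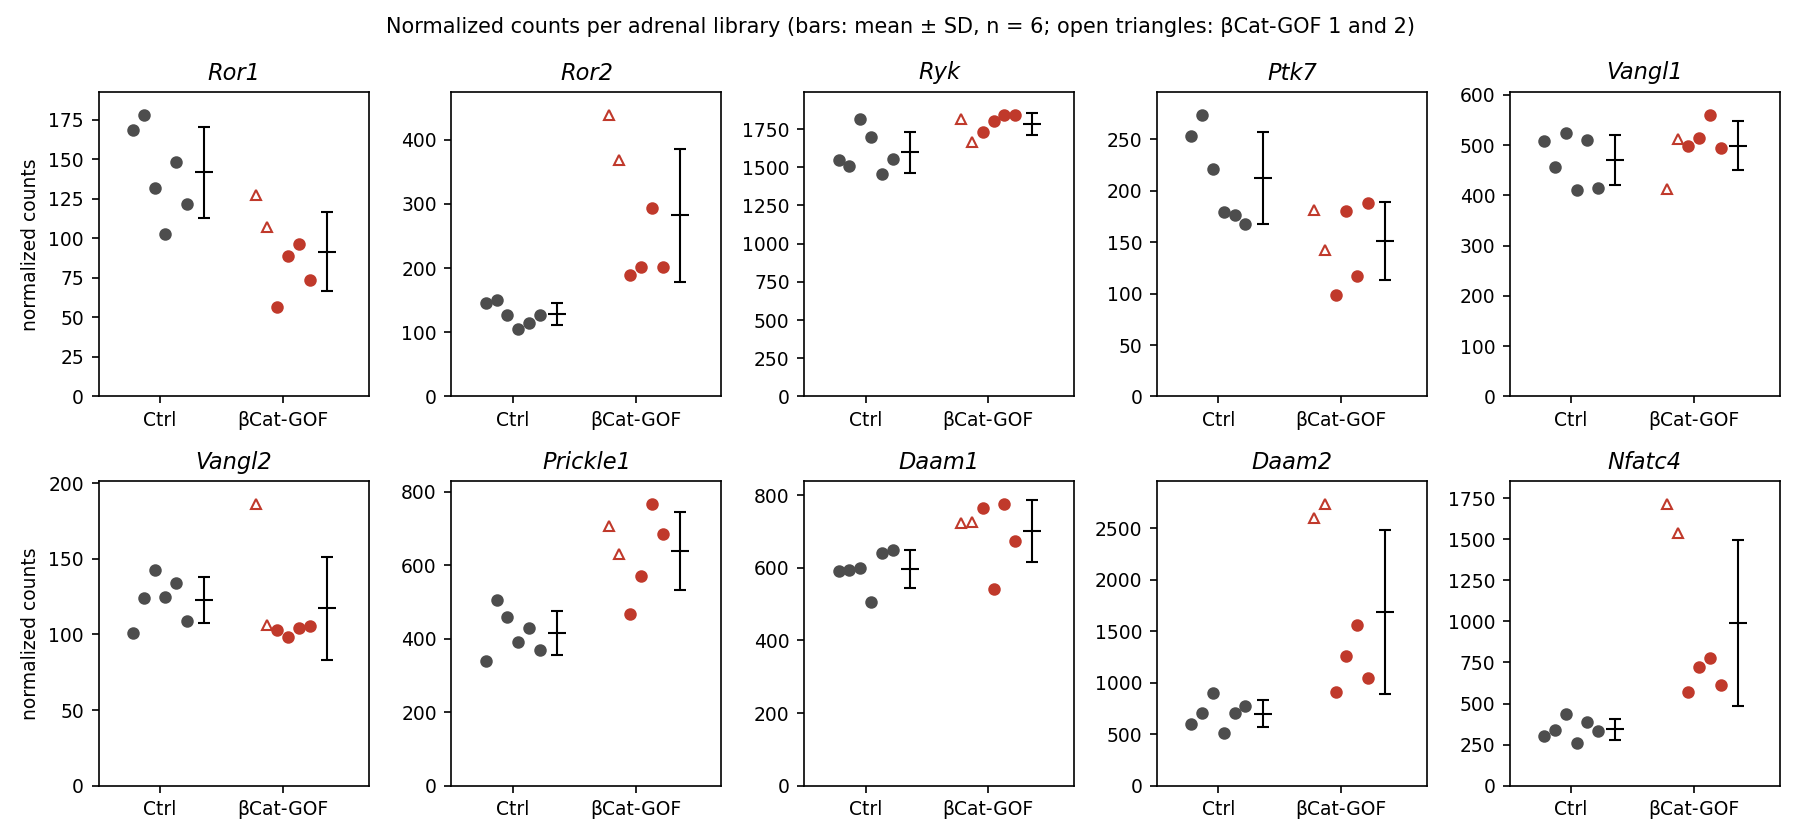
Normalized counts (y axis, from 0) of the 10 genes in each of 6 Ctrl and 6 βCat-GOF adrenal libraries, with the mean ± SD of each group beside the points and βCat-GOF 1 and 2 as open triangles. Nfatc4, Daam2 and Ror2 do not overlap between the groups and are highest in the open triangles. Ryk, Vangl1 and Daam1 overlap between the groups, with folds of 1.11, 1.05 and 1.17.

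The start regions of the 4 genes that rose are shown here. Stabilised β-catenin acts with TCF/LEF proteins at DNA, and whether it does so at these genes was not tested. Each stretch runs from 110 to 11 bases before the start site given by RefSeq (GRCm38.p6), 5′ to 3′ on the gene's strand, with CG dinucleotides in capitals. They lie at chr13:53286135-53286234 (minus strand) for Ror2, chr15:93519531-93519630 (minus) for Prickle1, chr17:49564348-49564447 (minus) for Daam2 and chr14:55824685-55824784 (plus) for Nfatc4. The Prickle1 stretch precedes an internal start site and lies in an intron of a longer transcript annotated by GENCODE, as does that of Nfatc4.
Ror2: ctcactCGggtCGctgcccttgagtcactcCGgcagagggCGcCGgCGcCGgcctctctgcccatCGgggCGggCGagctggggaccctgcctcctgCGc
Prickle1: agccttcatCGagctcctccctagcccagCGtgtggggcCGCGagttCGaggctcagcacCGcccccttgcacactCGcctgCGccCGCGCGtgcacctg
Daam2: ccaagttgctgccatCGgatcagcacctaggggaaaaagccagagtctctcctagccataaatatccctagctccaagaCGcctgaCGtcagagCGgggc
Nfatc4: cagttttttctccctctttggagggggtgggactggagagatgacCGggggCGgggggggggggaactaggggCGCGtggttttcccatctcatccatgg

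The 4 starts were unlike in base composition. The Ror2 and Prickle1 stretches held 11 CG each, the Daam2 and Nfatc4 stretches 4 each. In the 250 bases before the start there were 24 CG for Ror2, 16 for Prickle1, 10 for Daam2 and 8 for Nfatc4, against a median of 6 over 32851 promoters. The TCF/LEF motif, searched on both strands as CTTTGAA or CTTTGAT or CTTTGTA or CTTTGTT, was present in the 250 bases of 14.8% of all promoters and in 0 of those of the 9 genes with an entry. The core of the SF-1 motif, AAGGTCA on either strand, which the steroidogenic factor Nr5a1 recognises, was present in 4.08% of all promoters and again in 0 of these. A missing match says only that those letters are not in this window.

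Among the receptors, Ror2 rose, whereas its relative Ror1 had a lower mean in βCat-GOF that did not pass the cut-offs. Ror2, a receptor tyrosine kinase-like protein that binds Wnt5a (chr13:53109312-53286124, minus strand), had 146, 150, 127, 105, 114 and 127 normalized counts in Ctrl 1 to 6 and 439, 369, 189, 201, 294 and 201 in βCat-GOF 1 to 6. Every βCat-GOF library was above every Ctrl library, with βCat-GOF 1 and 2 highest. The mean went from 128 ± 17.5 to 282 ± 104 (SD, n = 6 each), and the log2 fold change was 1.14 (SE 0.22, edgeR's quasi-likelihood test, adjusted p = 0.0125). Without βCat-GOF 1 and 2 it was 0.77 (adjusted p = 0.0137), in a fit that called 2.90% of tested genes higher, and with the pairs summed it was 1.03 and no longer called (edgeR, adjusted p = 0.0535).

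Ror1, its closest relative (chr4:100095791-100444765, plus strand), had 169, 178, 132, 103, 148 and 122 normalized counts in Ctrl 1 to 6 and 128, 107, 56.4, 88.6, 96.6 and 73.5 in βCat-GOF 1 to 6. The groups overlapped: 4 of 6 βCat-GOF libraries lay below every Ctrl library, and the exceptions were βCat-GOF 1 and 2. The log2 fold change was -0.63 (SE 0.21, edgeR's quasi-likelihood test, adjusted p = 0.112). Ror1 was called lower by DESeq2 (adjusted p = 0.0366). It was also called lower by edgeR without βCat-GOF 1 and 2 (log2 fold change -0.87, adjusted p = 0.0232), a fit that called 3.10% of all tested genes lower, and without βCat-GOF 1 alone (adjusted p = 0.0445).

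Taken as a ratio within each library, the balance of the Ror genes shifted in all 6 βCat-GOF libraries. The log2 ratio of Ror2 to Ror1 was -0.21, -0.25, -0.05, 0.03, -0.38 and 0.06 in Ctrl 1 to 6. It was 1.78, 1.78, 1.73, 1.18, 1.60 and 1.45 in βCat-GOF 1 to 6. The groups were far apart, and βCat-GOF 1 and 2, which stood out for Ror2 alone, lay next to βCat-GOF 3. The mean difference was 1.72 (SE 0.12, n = 6 each), a 3.29-fold change of the ratio, with an exact two-sided permutation p of 0.0022, the smallest that 6 libraries against 6 allow, and 0.0087 after Benjamini-Hochberg adjustment over the 4 ratios computed. Because Ror2 was listed with results from these libraries known, the p-values of this ratio describe it and are not independent evidence of a shift. In terms of counts, Ror2 made up 47.7% ± 3.0 of the Ror1 and Ror2 counts in Ctrl and 75.0% ± 3.2 in βCat-GOF (SD, n = 6 each). With the pairs summed the difference was 1.69 (exact permutation p = 0.0079, adjusted 0.0317), and without βCat-GOF 1 and 2 it was 1.62 (exact permutation p = 0.0048, adjusted 0.0190).

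Neither of the other Wnt co-receptors passed the cut-offs. Ryk, an atypical receptor tyrosine kinase that binds Wnts directly (chr9:102834917-102908305, plus strand), ranged from 1454 to 1817 normalized counts in Ctrl (median 1553) and from 1665 to 1845 in βCat-GOF (median 1807). The groups overlapped, with a log2 fold change of 0.15 (SE 0.070, edgeR's quasi-likelihood test, adjusted p = 0.247). Ptk7, a catalytically inactive receptor kinase needed for planar polarity (chr17:46564471-46629504, minus strand), ranged from 168 to 274 in Ctrl (median 200.3) and from 98.4 to 188 in βCat-GOF (median 161). Its log2 fold change was -0.50 (SE 0.19, edgeR, adjusted p = 0.169), and βCat-GOF 1, 4 and 6 lay within the range of the Ctrl libraries.

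**Figure D2:**
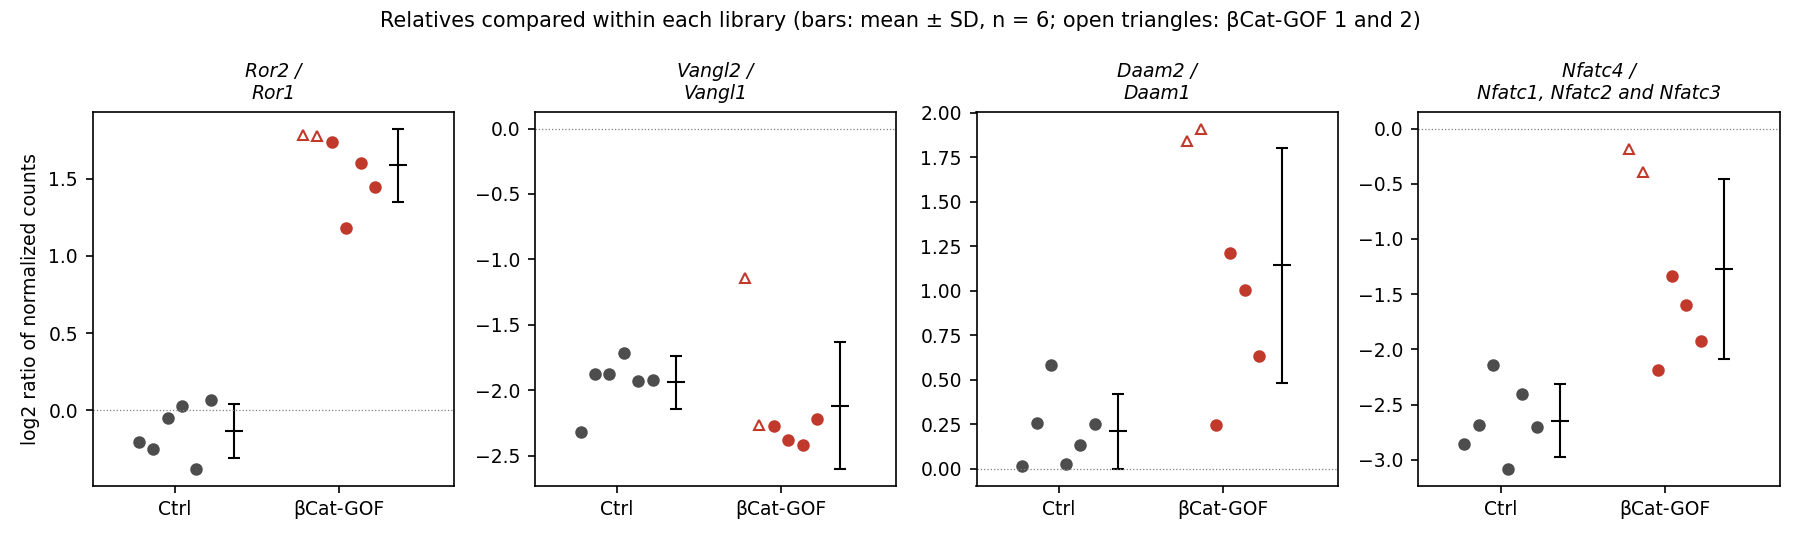
Log2 ratios of normalized counts (y axis) of a gene to its relatives within each library, for Ror2 to Ror1, Vangl2 to Vangl1, Daam2 to Daam1, and Nfatc4 to the sum of Nfatc1, Nfatc2 and Nfatc3. Points are libraries, bars the mean ± SD of 6, and open triangles βCat-GOF 1 and 2. The Ror2 to Ror1 ratio lies between -0.38 and 0.06 in Ctrl and between 1.18 and 1.78 in βCat-GOF, whereas the ratios of Daam2 and Nfatc4 spread widely within βCat-GOF.

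Of the core polarity genes, Prickle1 rose, and Vangl1 and Vangl2 did not pass the cut-offs. Prickle1, a cytoplasmic partner of the Vangl proteins (chr15:93499114-93595891, minus strand), had 339, 504, 458, 391, 430 and 370 normalized counts in Ctrl 1 to 6 and 706, 631, 468, 571, 767 and 685 in βCat-GOF 1 to 6. The groups overlapped in 1 library, βCat-GOF 3, which lay below Ctrl 2. The mean went from 415 ± 60.7 to 638 ± 107 (SD, n = 6 each), and the log2 fold change was 0.61 (SE 0.13, edgeR's quasi-likelihood test, adjusted p = 0.0226). Unlike the other 3 genes that rose, Prickle1 was highest in βCat-GOF 5, not in βCat-GOF 1 or 2, and its log2 fold change without these was 0.57 (edgeR, adjusted p = 0.0322). The call was lost without Ctrl 4, Ctrl 6 or βCat-GOF 6 (edgeR, adjusted p = 0.0513, 0.0593 and 0.0531), and with the pairs summed (log2 fold change 0.60, adjusted p = 0.0537).

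Vangl1, a membrane protein of the polarity core (chr3:102153583-102204693, minus strand), ranged from 412 to 523 normalized counts in Ctrl and from 413 to 561 in βCat-GOF, with a log2 fold change of 0.07 (SE 0.095, edgeR's quasi-likelihood test, adjusted p = 0.717). Its relative Vangl2 (chr1:172000960-172028444, minus strand) ranged from 101 to 142 in Ctrl and from 98.1 to 186 in βCat-GOF, with a log2 fold change of -0.07 (SE 0.18, edgeR, adjusted p = 0.880). The value of 186 belonged to βCat-GOF 1, and the other 5 βCat-GOF libraries lay between 98.1 and 106. The log2 ratio of Vangl2 to Vangl1 was -1.94 ± 0.20 in Ctrl and -2.12 ± 0.48 in βCat-GOF (SD, n = 6 each), a difference of -0.18 (SE 0.21, exact two-sided permutation p = 0.435). Without βCat-GOF 1 the difference was -0.37 (exact permutation p = 0.0108, adjusted over the 4 ratios 0.0144), so this single library decided whether the ratio differed.

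Among the effectors, Daam2 and Nfatc4 rose. Nfatc4, a transcription factor that calcineurin moves to the nucleus when calcium rises (chr14:55823144-55833943, plus strand), had 303, 338, 437, 257, 385 and 331 normalized counts in Ctrl 1 to 6 and 1715, 1540, 568, 721, 780 and 611 in βCat-GOF 1 to 6. The groups did not overlap, and βCat-GOF 1 and 2 lay far above the other 4 βCat-GOF libraries. The mean went from 342 ± 62.8 to 989 ± 503 (SD, n = 6 each), and the log2 fold change was 1.53 (SE 0.28, edgeR's quasi-likelihood test, adjusted p = 0.00844). Nfatc4 was the single gene of the 10 that remained called with the pairs summed (log2 fold change 1.31, edgeR, adjusted p = 0.0425), in a fit that called 1.16% of tested genes higher. Without βCat-GOF 1 and 2 its log2 fold change was 0.96 (adjusted p = 0.00299).

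Daam2, a formin that links Dishevelled to actin assembly (chr17:49456022-49564343, minus strand), had 597, 709, 898, 515, 704 and 775 normalized counts in Ctrl 1 to 6 and 2600, 2735, 909, 1256, 1557 and 1046 in βCat-GOF 1 to 6. The groups were apart by a small margin, since βCat-GOF 3 lay just above Ctrl 3, and βCat-GOF 1 and 2 were again highest. The mean went from 700 ± 134 to 1684 ± 794 (SD, n = 6 each), and the log2 fold change was 1.27 (SE 0.27, edgeR's quasi-likelihood test, adjusted p = 0.0188). Without βCat-GOF 1 and 2 it was 0.76 (adjusted p = 0.0173), and with the pairs summed 1.05 and no longer called (edgeR, adjusted p = 0.0753). The related formin Daam1 (chr12:71831078-71992333, plus strand) ranged from 505 to 650 in Ctrl and from 542 to 776 in βCat-GOF, overlapping, with a log2 fold change of 0.23 (SE 0.097, edgeR, adjusted p = 0.208). In 5 of 6 βCat-GOF libraries, all but βCat-GOF 4, Daam1 lay above every Ctrl library.

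The ratios of Daam2 and Nfatc4 to their relatives also differed between the groups. Both genes were listed with results from these libraries known, so the p-values describe these ratios and are not independent evidence. The log2 ratio of Daam2 to Daam1 was 0.21 ± 0.21 in Ctrl and 1.14 ± 0.66 in βCat-GOF, a difference of 0.93 (SE 0.28, n = 6 each, exact two-sided permutation p = 0.0087, adjusted 0.0115). It was above every Ctrl library in 5 of 6 βCat-GOF libraries, all but βCat-GOF 3. Summing the pairs gave 0.76 (exact permutation p = 0.0556, adjusted 0.0741), and leaving out βCat-GOF 1 and 2 gave 0.56 (exact permutation p = 0.0190, adjusted 0.0254). The log2 ratio of Nfatc4 to the sum of Nfatc1, Nfatc2 and Nfatc3, the other calcium-regulated NFAT genes, was -2.65 ± 0.33 in Ctrl and -1.27 ± 0.81 in βCat-GOF, a difference of 1.38 (SE 0.36, n = 6 each, exact permutation p = 0.0043, adjusted 0.0087), again above every Ctrl library in 5 of 6. Summing the pairs gave 1.13 (exact permutation p = 0.0159, adjusted 0.0317), and leaving out βCat-GOF 1 and 2 gave 0.89 (exact permutation p = 0.0143, adjusted 0.0254).

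**Figure D3:**
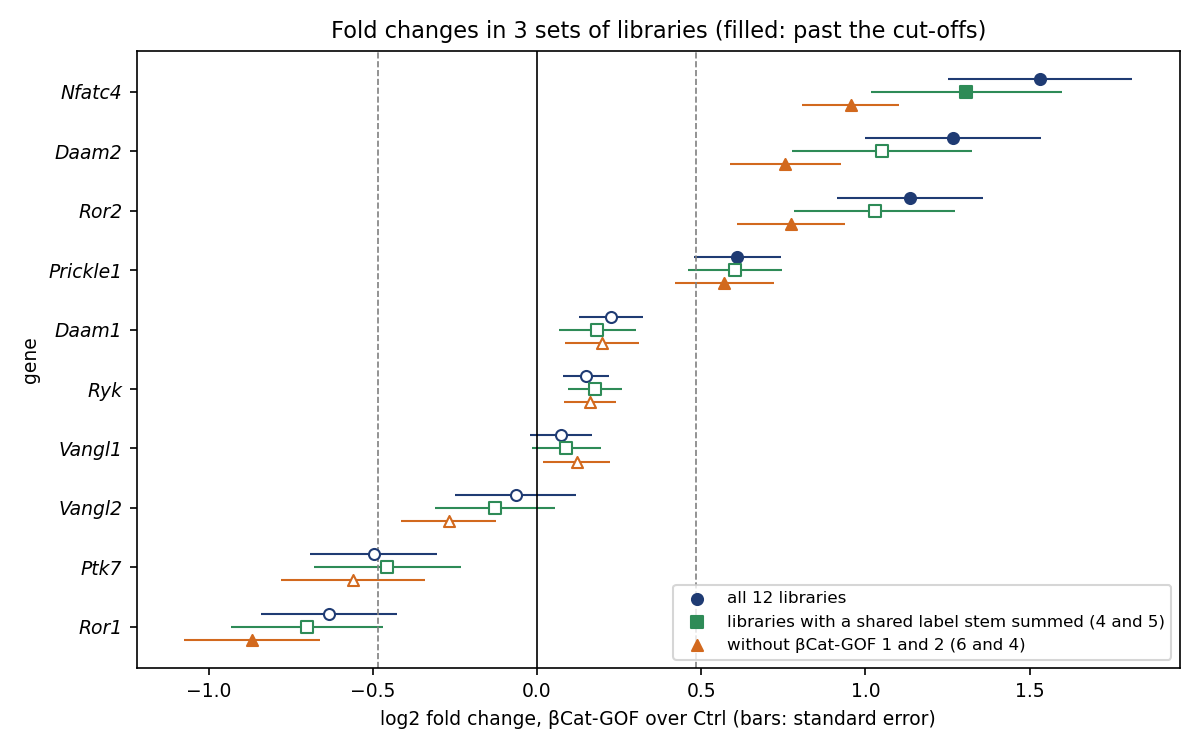
Log2 fold changes of βCat-GOF over Ctrl (x axis, with standard errors) for the 10 genes (y axis), in all 12 libraries, with libraries of a shared label stem summed (4 Ctrl and 5 βCat-GOF), and without βCat-GOF 1 and 2 (6 and 4). Filled symbols passed the cut-offs and dashed lines mark a fold of 1.4. Nfatc4 is filled in all 3, and its fold change falls from 1.53 to 0.96 without βCat-GOF 1 and 2, while Prickle1 moves little, from 0.61 to 0.57.

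The order of the βCat-GOF libraries was much alike for the genes that rose most. For Nfatc4 the order from highest to lowest was βCat-GOF 1, 2, 5, 4, 6 and 3, for Daam2 it was 2, 1, 5, 4, 6 and 3, and for Ror2 it was 1, 2, 5, 6, 4 and 3. Ror1, whose mean was lower in βCat-GOF, had the same order as Nfatc4 within that group. For Prickle1 the order was 5, 1, 6, 2, 4 and 3. βCat-GOF 3 was thus lowest for all 5 of these genes. Summed normalized counts of 9 zG markers were between 56626 and 66886 in Ctrl and between 68974 and 87688 in βCat-GOF, without overlap, and were highest in βCat-GOF 1 (84508) and 2 (87688). This sum is weighted to the most abundant markers. The mean log2 CPM of the same 9 markers, which weights them equally, overlapped, with 6.84 to 7.35 in Ctrl and 6.82 to 8.03 in βCat-GOF, where βCat-GOF 3 (6.82) lay below every Ctrl library and βCat-GOF 4 (7.34) within their range. Of these markers 4 of 9 were called higher (Agtr1a, Agtr1b, Vsnl1 and Dab2) and 0 lower, against 1.48% and 0.869% of tested genes. By their means, 8 of the 9 were higher and 1 lower in βCat-GOF. Summed counts of 6 zF markers were between 698912 and 812163 in Ctrl. They were 506954 in βCat-GOF 1, 713390 in βCat-GOF 2 and between 863001 and 1226860 in βCat-GOF 3 to 6. Of these zF markers 2 of 6 were called higher (Akr1b7 and Mrap) and 0 lower, and 4 had a higher and 2 a lower mean. The sum of 11 capsule and stroma markers overlapped between the groups (11988 to 19971 against 8664 to 19193), with 0 called in edgeR in either direction and 2 at an unadjusted p under 0.05. None of the markers of these 3 lists was at 0 in all libraries, and the part of cell composition in the changes of Nfatc4, Daam2, Ror2 and Prickle1 was not tested.

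**Figure D4:**
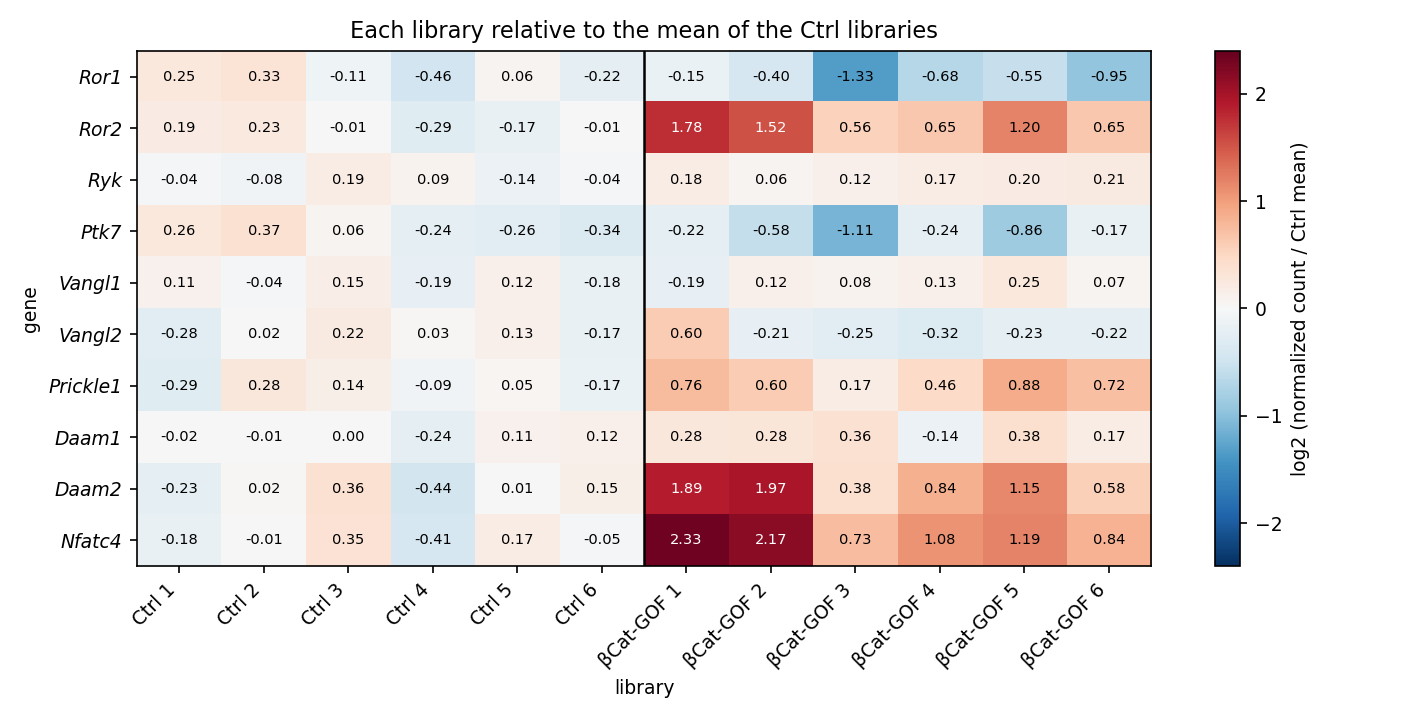
Log2 of the normalized count over the mean of the Ctrl libraries (colour and printed value) for the 10 genes (rows) in 12 libraries (columns). βCat-GOF 1 and 2 are darkest for Nfatc4 (2.33 and 2.17), Daam2 (1.89 and 1.97) and Ror2 (1.78 and 1.52), and Ror1 is below 0 in all 6 βCat-GOF libraries.

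Per kilobase of exon, Ryk was by far the most abundant of the 10 in both groups. In Ctrl, Ryk had a level of 17.9 ± 1.57 RPKM (reads scaled to exon length and library size, SD, n = 6), apart from all others. Prickle1 (4.88), Daam1 (3.75), Daam2 (3.65), Vangl1 (3.35), Nfatc4 (3.00), Ptk7 (2.01), Ror2 (1.54), Ror1 (1.25) and Vangl2 (0.894) followed, each overlapping the next in its range over libraries. In βCat-GOF, Ryk (19.3 ± 1.81 RPKM) was again apart from all others. Daam2 (8.70), Nfatc4 (8.63), Prickle1 (7.24), Daam1 (4.25), Vangl1 (3.40) and Ror2 (3.34) followed, overlapping from one to the next. Ptk7 (1.39), Vangl2 (0.836) and Ror1 (0.793) stood below, with Ror2 apart from Ptk7. Ror2 and Ror1 thus had overlapping levels in Ctrl and were separated by other genes in βCat-GOF. No near-identical copy was found: 0 other genes matched any of the 10 transcripts at 95% identity over 10% of the length, and exon overlap with another gene was 0.112% of Vangl1 and 0% of the other 9.

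A wider list of 72 pathway genes was examined beside the 10, of which 67 could be tested. A single one rose, Dact1, a cytoplasmic protein that binds Dishevelled, and 0 fell, the backgrounds being those given above (1.48% and 0.869%). Its normalized counts were 312, 395, 423, 210, 227 and 387 in Ctrl 1 to 6 and 1101, 838, 550, 542, 481 and 533 in βCat-GOF 1 to 6. The groups did not overlap and βCat-GOF 1 and 2 were again highest. Its log2 fold change was 1.05 (SE 0.24, edgeR's quasi-likelihood test, adjusted p = 0.0286), and the call was lost without Ctrl 4, Ctrl 5 or βCat-GOF 2. With the pairs summed it was 0.93 and no longer called (edgeR, adjusted p = 0.0627), and without βCat-GOF 1 and 2 it was 0.68 (adjusted p = 0.0392). Over the 67 genes, 43 had higher and 24 lower means in βCat-GOF, the median log2 fold change was 0.06, and 11 had an unadjusted p under 0.05, against the background of 20.4%.

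Apart from the core polarity list, which Dact1 led, the gene with the largest fold and a mean above 100 is given for 4 arms. Such a gene does not stand for the rest of its arm. Means were higher in βCat-GOF for 2 of 4 tested ligands and 5 of 5 receptors and co-receptors. They were higher for 2 of 5 Fat-Dachsous and cilium-linked genes and 11 of 20 calcium and NFAT genes, and lower for the rest. Among 4 tested ligands 0 were called, and Wnt4, a Wnt ligand made in the zG, ranged from 3078 to 8197 normalized counts in Ctrl and from 6299 to 14263 in βCat-GOF (log2 fold change 0.79, SE 0.25, edgeR's quasi-likelihood test, adjusted p = 0.0945). Wnt5a, the ligand named above, had a lower mean in βCat-GOF (-0.30, SE 0.13, edgeR, adjusted p = 0.211), as did Wnt5b (-0.43, SE 0.19, adjusted p = 0.228). Among 5 receptors and co-receptors 0 were called, led by Fzd6, a Frizzled used in polarity (0.44, adjusted p = 0.319, and -0.0029 without βCat-GOF 1 and 2). Among 5 genes of Fat-Dachsous and cilium-linked polarity 0 were called, led by the protocadherin Dchs1, which ranged from 241 to 286 in Ctrl and from 115 to 241 in βCat-GOF (-0.51, adjusted p = 0.0908). Among 20 genes of the calcium and NFAT arm 0 were called, led by Nfat5, a tonicity-responsive relative of the NFAT genes (0.77, adjusted p = 0.191, and 0.15 without βCat-GOF 1 and 2). In that arm Ppp3cc, a catalytic subunit of calcineurin, lay lower in every βCat-GOF library than in any Ctrl library, with an adjusted p of 0.0356 in edgeR but a log2 fold change of -0.43, inside the fold cut-off. It was singled out after its values were seen.

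**Figure D5:**
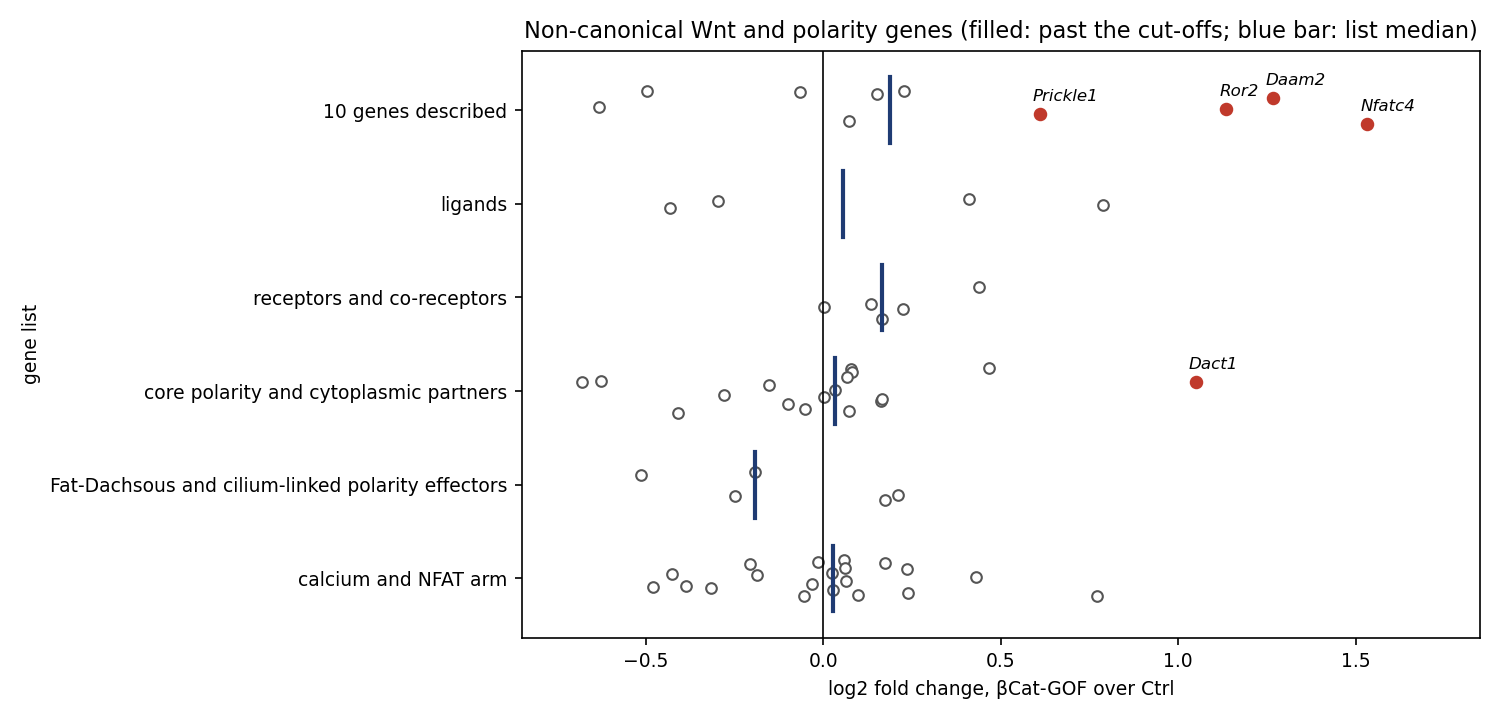
Log2 fold changes of βCat-GOF over Ctrl (x axis) for the 10 genes described and for 51 further pathway genes in 5 lists (y axis). Points are genes, filled where they passed the cut-offs, and blue bars mark list medians. Nfatc4, Daam2, Ror2, Prickle1 and, in the core polarity list, Dact1 are filled, and the medians of the 5 wider lists lie between -0.19 and 0.16.

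For each gene that rose, the genes closest in pattern over the 12 libraries were taken from 11421 genes with a mean above 100, by the root mean square difference of log2 CPM (counts scaled to library size) after centring each gene on its own mean. The closest genes lie below the median difference because they were selected as the smallest, so the medians only give the scale. For Nfatc4 these were B4galt5, a galactosyltransferase (0.15), Apcdd1, a membrane inhibitor of Wnt signalling (0.20), and D630039A03Rik (0.20), against a median of 0.88 over all genes. For Daam2 they were Lhfpl2 (0.20), the kinase gene Cdk18 (0.20) and again B4galt5 (0.21), against a median of 0.78. For Ror2 they were the phosphodiesterase gene Pde2a (0.16), the phospholipase gene Pla2g2f (0.18) and Atp10a (0.18), against a median of 0.68. For Prickle1 they were Abr (0.16), Tcf7, a transcription factor of the canonical Wnt pathway (0.17), and P4ha2 (0.18), against a median of 0.43. B4galt5 was the single gene that appeared in the lists of 2 of the 4.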

How the data were processed

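Whole adrenals gave 6 Ctrl and 6 βCat-GOF libraries, made with a poly(A) kit (Illumina TruSeq mRNA). According to the study's methods, the authors trimmed adapters with cutadapt, used STAR to place reads on mm10, and assigned those with a unique position to genes by featureCounts 1.4.4. The strand setting and annotation release are not given in the sources used here. The authors deposited these counts without normalization, together with a signal table in which each library's counts are divided by 1 factor, used here only to recover these factors (0.954 to 0.976 times those of DESeq2). Columns not mapped to a sample numbered 0.

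Counts were tested with edgeR 4.0.16 (TMM, filterByExpr, quasi-likelihood test, two-sided, Benjamini-Hochberg) in R 4.3.3. The cut-offs were those of the study (fold 1.4, adjusted p 0.05, base mean 100). Normalized counts were counts over DESeq2 1.42.0 size factors, and RPKM used exon lengths of GENCODE on GRCm38. Ratios of relatives used normalized counts plus 0.5 and the exact permutation test over 924 splits. On simulated data of the same comparison (14818 genes) edgeR recovered 173 of 200 changed genes with 12 false calls, at an adjusted p under 0.05 alone. DESeq2 recovered 182, with 53 false calls without shrinkage and 51 with the zero-centred prior. The simulated libraries were drawn independently, so pairs with a shared label stem and a deviating library were not covered. The members and lists were chosen with earlier results of these data known. Named genes were the 10 members, wider-list genes past the cut-offs, the gene of largest fold in each wider list with a base mean above 100, and the 3 genes most like each called member. The genes of 1 wider list entered the counts over all wider-list genes but are not reported here by name. Of the 72 wider-list genes 71 had a row (all but Dchs2), and Wnt9b, Musk, Prickle4 and Fjx1 did not pass the filter. Markers of smooth muscle and pericytes, endothelium, chromaffin cells, Schwann cells and adipocytes had 0 calls in edgeR (2, 2, 0, 0 and 1 at an unadjusted p under 0.05). Of 5 macrophage markers 2, Itgax and Adgre1, were called lower and 0 higher, against 0.869% and 1.48% of tested genes. The means of 4 macrophage markers were lower and that of 1 higher, and 4 had an unadjusted p under 0.05, against 20.4% of tested genes. Promoter sequences came from RefSeq (GRCm38.p6).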

Additional observations from a re-analysis of the deposited data

Results flagged for a closer look

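A library far from the rest of its group was looked for in 28 groups of 6 (20 of single genes and 8 of ratios), by the gap to the nearest library over the whole range against Dixon's 95% critical value. Such a value arises by chance in about 1 of 20 groups, and 3 were found, all of them involving Vangl2. Vangl2 had 186 normalized counts in βCat-GOF 1, against 98.1 to 106 in the other 5 βCat-GOF libraries (gap over range 0.907). The log2 ratio of Vangl2 to Vangl1 was -1.15 in βCat-GOF 1, against -2.42 to -2.22 in the other 5 (0.846). The same ratio was -2.32 in Ctrl 1, against -1.93 to -1.72 in the other 5 Ctrl libraries (0.648).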

How the results depend on the processing

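The fold changes of the 10 members kept their direction under 10 alternatives of the fit and 12 fits that each left out 1 library. The alternatives that changed only the adjusted p cut-off, or tested against a fold of 1.4, reused the main fold changes. Direction could not change in these. The 4 ratios kept their direction under 5 alternatives and with each of the 12 libraries left out. Among the 5, TMM in place of DESeq2 size factors could hardly change a ratio. A library's factor cancels within it, apart from the constant added to the counts. As an addition after seeing the data, the fold changes of Dact1, Dchs1, Fzd6, Nfat5, Ppp3cc and Wnt4 were computed under the same fits. Fzd6 reversed, to -0.0029 without βCat-GOF 1 and 2, and the others kept their direction. The count of members called higher was 4. It was 1 at an adjusted p under 0.01 (Nfatc4), 0 in a test against a fold of 1.4 itself, where Nfatc4 had an adjusted p of 0.0616 in edgeR, and 1 with the counts of paired libraries summed (Nfatc4). Leaving out 1 library gave 3 to 4. The count called lower was 0. It was 1 (Ror1) in DESeq2 without shrinkage, in DESeq2 with the zero-centred prior and without βCat-GOF 1 and 2 together, and 0 to 1 when 1 library was left out. From the wider list, 1 gene was called higher. It was 2 in both DESeq2 fits (Dact1 and Wnt4), 0 at an adjusted p under 0.01, 0 against a fold of 1.4, 0 with pairs summed, and 0 to 2 when 1 library was left out (2 without βCat-GOF 4, Dact1 and Nlk). The share of all tested genes that DESeq2 called higher was not computed. Of the wider list 0 were called lower, but 1 in DESeq2 without shrinkage (Dchs1), against 1.72% of tested genes. It was 1 at an adjusted p under 0.05 alone (Ppp3cc), and 0 to 1 when 1 library was left out (Dchs1, without βCat-GOF 1). Without βCat-GOF 1 and 2 it was 3 (Celsr2, Celsr3 and Dchs1), in a fit that called 3.10% of tested genes lower. The difference in the log2 ratio of Daam2 to Daam1 was 0.76 with pairs summed (exact permutation test, adjusted p = 0.0741). That of Vangl2 to Vangl1 was -0.38 without βCat-GOF 1 and 2 (adjusted p = 0.0333, exact permutation) and -0.37 to -0.12 when 1 library was left out. The summed fit had fewer libraries, and the causes of these differences were not tested. Without βCat-GOF 1 and 2, edgeR called 2.90% of tested genes higher and 3.10% lower. No paired analysis was possible because the labels give the groups no shared replicate numbers. Genes near 100 normalized counts, such as Vangl2 and Ror1, have the fewest reads behind them.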
